A study of Danio rerio with 36 samples.

Results

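Of the 31916 genes measured in zebrafish eyes, 95 had higher transcript levels in bmp4 eyes than in control eyes in each of 3 numbered pairs of larval libraries, and their levels were followed in shh eyes and in tissues of lrp2 mutants. A gene was taken when its TPM (a transcript level scaled for gene length and library size) averaged at least 2 over the 3 bmp4 libraries and when the log2 ratio of bmp4 over control, with 0.5 TPM added to both, was at least 0.5 in pairs 11, 12 and 13. The level minimum was met by 17119 genes, and 109 genes met both conditions. Of these, 14 carry symbols that the rule leaves out, among them BMP4 itself and the known pathway genes ID1, SMAD6 and smad9, and the other 95 are the members described here. The mirrored rule for lower levels, with the level minimum set on control eyes, found 70 genes. No symbols were left out of that count, so it stands beside the 109 genes.

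The larval libraries were made from whole eyes at 5 days after fertilization. Each larval group and each tissue group has 3 libraries. The bmp4 eyes came from fish with the transgene hsp70l:eGFP-bmp4, driven by a heat-inducible promoter, and the shh eyes from fish with hsp70l:shha-eGFP, driven by the same promoter. Each of these groups had its own control, labelled wild-type. The scheme of heat shock is not given in the sources used here. The lrp2-/- mutants and their wild-type fish, 1 month old, gave 4 kinds of sample: undissected whole eyes, retina, RPE (the retinal pigment epithelium) and sclera together with choroid. The gene lrp2 encodes the large endocytic receptor megalin. The wild-type samples of this age are titled ZDR. The labels name neither the mutant allele nor a family, so genotype and family cannot be told apart. Whether replicates were separate animals is not stated either. A p-value here sets the difference between groups only against the scatter of the libraries, and that scatter may be technical.

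Bone morphogenetic proteins are secreted ligands of the TGF-beta family. They bind paired serine/threonine kinase receptors, which phosphorylate the transcription factors SMAD1, SMAD5 and SMAD9. The pathway switches on many of its own inhibitors, among them inhibitory SMADs, decoy receptors and secreted antagonists, beside transcription factors of the Id, Msx, Dlx and Gata families. In the developing eye it patterns the dorsal retina and takes part in lens and ciliary margin formation, and megalin is an endocytic receptor that can bind BMP4.

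The labels were first checked on the genes they name. BMP4 had 248, 275 and 244 CPM (counts relative to scaled library size) in the bmp4 eyes, against 7.53, 6.60 and 8.29 CPM in their controls. The groups were far apart, with a log2 fold change of 5.10 ± 0.13 (SE). SHH (ENSDARG00000068567) had 51.9, 142 and 47.1 CPM in the shh eyes, against 6.31, 17 and 6.87 CPM in their controls. These groups did not overlap either, although the edgeR adjusted p was 0.900. BMP4 itself was not called in the shh eyes or in any lrp2 comparison, where its log2 fold changes were between -0.26 and 0.31. LRP2 transcript was called lower in the mutant retina only, by -0.46 ± 0.08 (SE, adjusted p = 0.00460, edgeR quasi-likelihood test), and a mutation need not lower the transcript.

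Some libraries stood apart. Library 13 of the shh eyes had a clock gene sum of 1197 TPM, against 3224 and 3290 TPM in the other 2 shh libraries. Its TPM over its control had a median log2 ratio of -0.89 over 16818 genes. The shift was not confined to clock genes. In the same libraries the BMP receptor and transducer list summed to 105 TPM, against 418 and 472 TPM. Ribosomal proteins were high in library 13, at 111473 TPM, against 76828 and 72721 TPM. The sum over 35 lens genes was 404 to 425 TPM in mutant retinas, against 31431 TPM in wild-type retina library 12 and 333 and 388 TPM in the other wild-type retinas. RPE libraries differed in several respects, some of which are given here. The heat shock and chaperone list summed to 5430 to 6149 TPM in mutant RPE and 4165 to 4835 TPM in wild-type RPE. Genes of the corneal and surface epithelium list summed to 5905 to 38520 TPM in mutant RPE and 15468 to 18029 TPM in wild-type RPE, and those of the red blood cell list to 2990 to 5264 TPM in mutant RPE and 16500 to 20474 TPM in wild-type RPE. RPE carried its own markers. The RPE and visual cycle list summed to 16951 to 26255 TPM in RPE of wild-type fish. It summed to 1934 to 2165 TPM in their retina and 251 to 287 TPM in their sclera with choroid. In mutant RPE this list summed to 12381 to 16753 TPM, so that every mutant library was below every wild-type one. Rod genes were present as well, with sums of 2918, 5024 and 16988 TPM in wild-type RPE libraries 11, 12 and 13.

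Most of the 95 were transcripts of low level whose rise was modest. Their bmp4 means had a median of 6.14 TPM, against 2.64 TPM in control eyes, and the mean over pairs of the log2 ratio had a median of 0.90. Means above 50 TPM in bmp4 eyes were found for 7 members and means under 5 TPM for 37. In all 3 pairs, 22 members were at a log2 ratio of 1 or more, while in 33 the smallest pair was under 0.6. Pair 11 gave the highest ratio for 43 members, pair 12 for 22 and pair 13 for 30. The members were selected on these TPM ratios, which therefore describe them, with no test. The members just inside the limit were chl1b at 0.50, si:dkey-228i19.34 at 0.50 and si:ch73-190f9.7 at 0.50 in their smallest pair, and just outside lay 2 genes without symbols at 0.49 and CHST7 at 0.49. By level, GPHB5, msx2a and ASB16 missed the minimum, at means of 1.997, 1.93 and 1.91 TPM in bmp4 eyes.

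Symbols were available for 79 members. Of these, 18 bear clone names, 3 are 5S ribosomal RNA copies, 1 is a U1 small nuclear RNA copy and 3 are microRNA loci. The small RNAs rested on few reads. The locus mir190b, first in the ranking, had 6, 4 and 2 counts in bmp4 eyes and 1, 0 and 0 in control eyes. MIR21 (ENSDARG00000082187) had 9, 8 and 4 counts, against 1, 3 and 1 in control eyes. The 5S_rRNA copy ENSDARG00000085621 had 2, 2 and 4 counts and none in control eyes. It is 1 of 673 identifiers of that name, between which reads may have been divided, and none of the small RNAs entered the count-based fit.

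**Figure D1:**
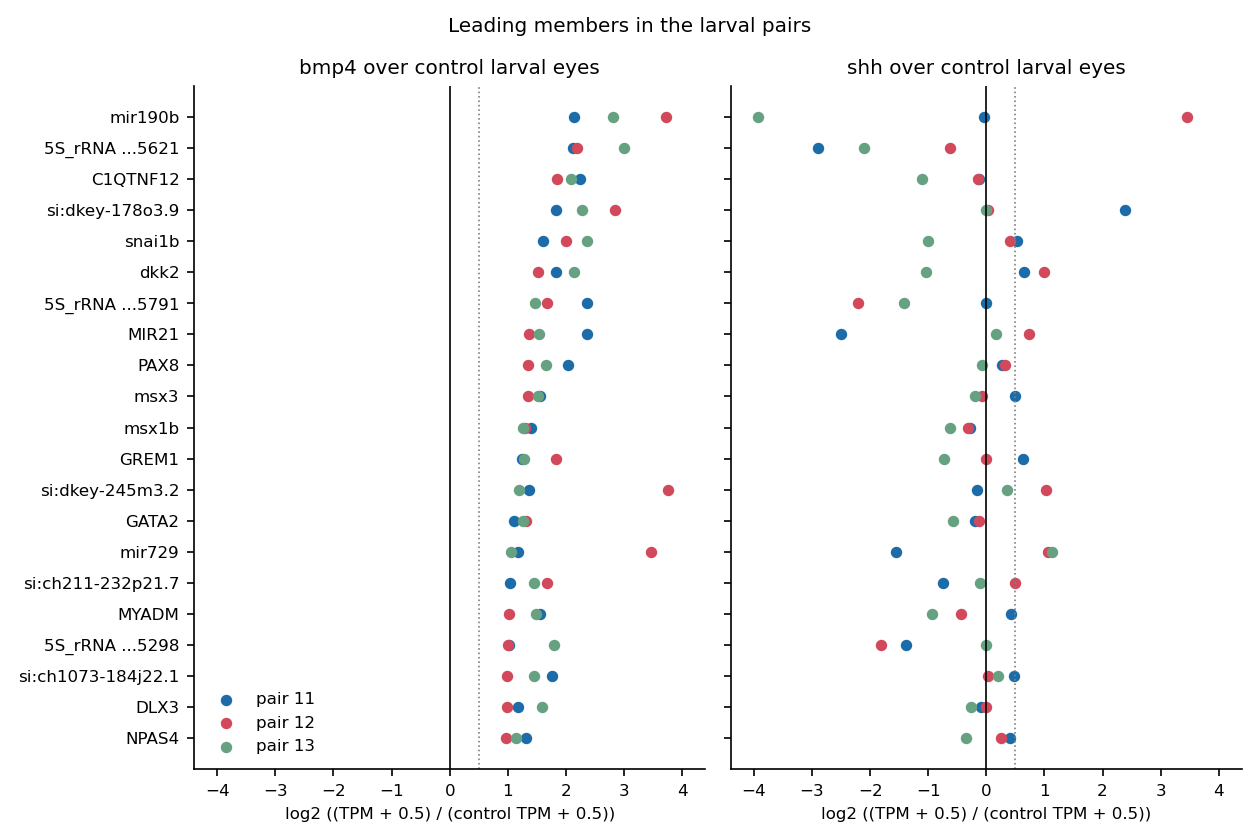
Log2 ratio of (TPM + 0.5) over (control TPM + 0.5) in pairs 11, 12 and 13 for the members with a symbol among the 25 with the highest smallest-pair ratio, in bmp4 eyes (left) and shh eyes (right). The dotted line marks the limit of 0.5. Every bmp4 point lies above it because the rule chose it so, while in the shh eyes the points lie on both sides of 0.

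Transcription factors known as BMP targets were the largest group on the BMP lists, and their list was also the longest. The other lists held 22 ligands, 20 receptors and transducers, and 32 inhibitors and regulators. All were taken without the symbols that the rule leaves out. Of the 48 measured genes on the list of BMP response genes, 5 were members: msx3, msx1b, GATA2, DLX3 and ID3. The homeobox gene msx3 had 15.7, 14.3 and 18.4 TPM in bmp4 eyes, against 5.00, 5.33 and 6.06 TPM in control eyes. Its relative msx1b had 18.3, 14.3 and 17.9 TPM, against 6.62, 5.57 and 7.19 TPM in control eyes. DLX3, a distal-less homeobox gene, had 15.9, 12.5 and 14.2 TPM, against 6.72, 6.11 and 4.38 TPM in control eyes. For these 3 homeobox genes every bmp4 library was at least as high as 12.5 TPM and no control library exceeded 7.19 TPM. GATA2, a zinc finger factor, had 8.45, 7.55 and 5.10 TPM in bmp4 eyes, against 3.64, 2.74 and 1.83 TPM in control eyes. ID3, an inhibitor of basic helix-loop-helix factors, was the most abundant of the 5, with 60.1, 52.1 and 59.6 TPM in bmp4 eyes, against 33.7, 34.8 and 30.7 TPM in control eyes. The groups did not overlap for either gene. The other 33 list genes tested had a median log2 fold change of 0.12, and 27 of them were above 0, but none was called. Of all 21035 genes tested in this comparison, 49.4% were above 0, a share to set beside this and the later list counts. Members and left-out genes are missing from these counts, so that genes chosen for a rise were removed beforehand.

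Other members act within the pathway or restrain it. SMAD1, a receptor-activated transducer, had 30.1, 31.0 and 22.9 TPM in bmp4 eyes, against 14.9, 16.6 and 10.7 TPM in control eyes. SMAD7, an inhibitory SMAD, had 37.8, 34.5 and 31.99 TPM, against 22.3, 21.5 and 18.7 TPM in control eyes. BAMBI (ENSDARG00000055381), a decoy receptor without a kinase domain, had 40.7, 36.3 and 37.9 TPM, against 21.1, 16.9 and 21.4 TPM in control eyes. The bmp4 and control libraries did not overlap for any of these 3 genes. GREM1 (ENSDARG00000029546), a secreted BMP antagonist, had 2.02, 5.12 and 0.71 TPM in bmp4 eyes, against 0.56, 1.09 and 0.00 TPM in control eyes, and its groups did overlap. GDF10 (ENSDARG00000073891), a ligand of the family, had 10.6, 6.76 and 10.0 TPM, against 4.44, 4.49 and 4.77 TPM in control eyes. Of the 14 other BMP ligands tested, 3 were above 0 and the median log2 fold change was -0.42, with none called. Among the other receptors and transducers 14 of 18, and among the other inhibitors and regulators 17 of 26, were above 0, again with none called.

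**Figure D2:**
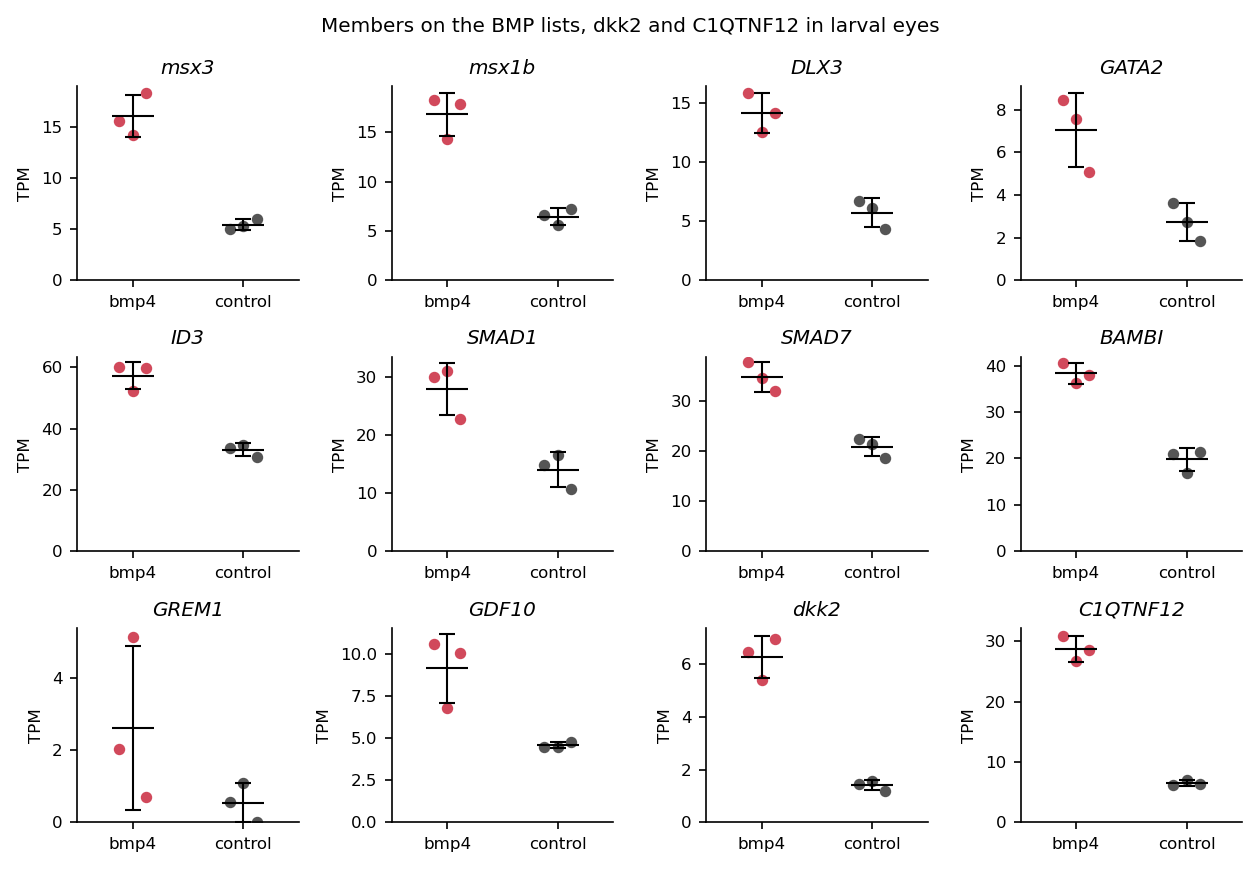
TPM in each library of bmp4 eyes (left) and control eyes (right) for the 10 members on the BMP lists, dkk2 and C1QTNF12, with the mean and SD of 3 libraries. The groups are apart in every panel other than GREM1, where the bmp4 values spread between 0.71 and 5.12 TPM.

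By smallest pair C1QTNF12 had rank 3, and it encodes a secreted C1q/TNF-related protein. It had 31.0, 26.7 and 28.6 TPM in bmp4 eyes, against 6.12, 7.08 and 6.34 TPM in control eyes. dkk2, a secreted regulator of Wnt signalling, had 6.47, 5.41 and 6.97 TPM, against 1.46, 1.56 and 1.2 TPM in control eyes. The Wnt receptor genes FZD2, with a mean of 35.7 ± 1.5 TPM in bmp4 eyes and 21.2 ± 2.7 TPM in control eyes, and FZD5, with 41.6 ± 3.9 TPM and 23.6 ± 1.5 TPM (SD, n = 3), were members as well; they were picked here after their values were seen. Of the other 24 genes tested on the list of Wnt targets and regulators, 10 were above 0 and none was called.

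Further members stood apart from the BMP lists. snai1b, a zinc finger repressor known from epithelial-mesenchymal transitions, had 6.16, 4.92 and 4.66 TPM in bmp4 eyes, against 1.68, 0.85 and 0.50 TPM in control eyes. The paired-box gene PAX8 had 7.53, 4.75 and 5.78 TPM, against 1.45, 1.56 and 1.49 TPM in control eyes. Both were absent from the lists used here, and neither had overlapping groups. The activity-induced factor NPAS4 (ENSDARG00000055752) had 3.64, 3.94 and 2.27 TPM in bmp4 eyes, against 1.16, 1.76 and 0.76 TPM in control eyes. MYADM (ENSDARG00000038709) had 7.50, 7.70 and 3.23 TPM, against 2.21, 3.53 and 0.84 TPM in control eyes, so that its groups overlapped.

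The retinoic acid list had 2 members among its 22 measured genes. CYP26A1, which degrades retinoic acid, had 86.8, 48.6 and 77.5 TPM in bmp4 eyes, against 53.7, 25.8 and 49.4 TPM in control eyes. Here the controls of pairs 11 and 13 were above the bmp4 library of pair 12, and library 12 was the lowest of both groups. CRABP2 (ENSDARG00000030449), a retinoic acid carrier, had 50.03, 42.1 and 35.2 TPM, against 27.9, 29.2 and 21.95 TPM in control eyes. ALDH1A3, which makes retinoic acid and is no member, was called lower, with a log2 fold change of -1.35 ± 0.11 (SE) and an edgeR adjusted p of 0.00581; it was picked for that call. Of the 20 list genes tested that are no members, 10 were above 0, and ALDH1A3 was the 1 called. Chaperones of the endoplasmic reticulum were the most abundant members. HSP90B1 had 131, 163 and 160 TPM in bmp4 eyes, against 76.5, 82.6 and 91.4 TPM in control eyes. PDIA3, a disulphide isomerase, had 212, 214 and 157 TPM, against 98.5, 102 and 96.0 TPM in control eyes. Of the other 24 genes tested on the ER stress list, 10 were above 0 and none was called.

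Single members stood on other lists. These were SERPINH1 (ENSDARG00000019949), a collagen chaperone, at 21.5, 35.6 and 33.2 TPM in bmp4 eyes, against 15.0, 22.5 and 20.8 TPM in control eyes, and loxl2a, a collagen-crosslinking oxidase, at 4.19, 2.62 and 2.41 TPM, against 1.52, 0.84 and 1.3 TPM in control eyes. thbs2b, a thrombospondin of the matrix, had 4.30, 3.89 and 3.31 TPM, against 2.61, 2.18 and 2.14 TPM in control eyes. Members on cell type lists included 1 each for lens (lim2.2), Muller glia (VIM, ENSDARG00000044501) and skeletal muscle (pvalb4). The summed levels of several marker lists did not overlap between the groups, although no gene on these lists was called. Those given next were picked from all the marker lists for that, after their values were seen. Marker lists, too, were taken without the symbols that the rule leaves out, so that the glial filament gene GFAP is in no sum. The Muller glia list summed to 3176 to 3542 TPM in bmp4 eyes and 3672 to 4055 TPM in control eyes, the corneal and surface epithelium list to 8498 to 9413 TPM and 9610 to 10711 TPM, the fibroblast and scleral matrix list to 1194 to 1247 TPM and 1282 to 1345 TPM, and the vascular endothelium list to 357 to 388 TPM and 303 to 349 TPM. Sums are carried by the most abundant genes, and the lists' median log2 fold changes were -0.06, -0.24, -0.15 and 0.03 in the same order. Their part in the members' values was not tested. In whole eyes, fewer cells of a type and less RNA per cell cannot be told apart.

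With edgeR's quasi-likelihood test without pairing, 5 of the 79 members with enough counts were called higher, beside 0.0808% of all 21035 genes tested. They were C1QTNF12, dkk2, PAX8, msx3 and PDIA3. With the replicate number as a block, 57 of 79 were called higher, beside 1.58% of all genes. The bmp4 and control libraries did not overlap for 61 of the 79, beside 4.7% of all genes. Since the same contrast chose the members, no such count says anything beyond the rule.

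Few genes of any kind met the pair limit of 0.5 in the shh eyes, and no member did. The level minimum was a mean over both shh and control libraries here, unlike that of the rule. Of 65 members with a mean of at least 2 TPM in the shh set, 0 had a log2 ratio of 0.5 or more in all 3 shh pairs, beside 0.0654% of 16818 genes, and 2 had a log2 ratio of -0.5 or less in all 3, beside 0.303%. Those 2 have no symbol and rested on few reads, with at most 7 counts in any shh or control library. Neither entered the count-based test. In all 3 pairs 6 members, or 9.23%, were above 0, against 3.17% of genes, and 19, or 29.2%, were below 0, against 31.0% of genes. The medians over members were -0.15, 0.03 and -0.99 in pairs 11, 12 and 13, against -0.11, 0.00 and -0.89 over all genes, so that pair 13 was low throughout. In the edgeR test of 77 members, without pairing, 0 were called in either direction, and so were 0.0% of all 20812 genes. With the replicate number as a block, 0.0% of all genes were again called higher and 0.0% lower. At an unadjusted p under 0.05 there were 1 member and 113 genes, and DESeq2 called 0 members and 2 genes. The median log2 fold change of members was 0.06, and their standard errors had a median of 0.43, against 0.21 in the bmp4 comparison. Even SHH (ENSDARG00000068567) itself, with a log2 fold change of 3.00 ± 0.62 (SE), was not called here. The absence of calls therefore does not show that members were unchanged. Without library 13 of the shh eyes the count of members called was again 0, as was that of all genes.

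On CPM, the shh and control libraries were apart without overlap for 4 members on the high side, beside 4.49% of all genes, and 1 on the low side, beside 3.79%. These were PAX8, HSP90B1, FZD2 and 1 clone-named gene above and si:dkey-16f21.2 below, named after their values were seen. On the TPM scale PAX8, HSP90B1 and FZD2 did overlap between the groups. msx3 had 4.89, 4.79 and 3.11 TPM in shh eyes, against 3.31, 5.06 and 3.62 TPM in control eyes. C1QTNF12 had 6.5, 6.09 and 3.07 TPM, against 7.18, 6.80 and 7.16 TPM in control eyes. ID3 had 31.1, 23.2 and 26.0 TPM, against 36.3, 25.7 and 33.3 TPM in control eyes. The groups overlapped for msx3 and ID3, while every shh value of C1QTNF12 was below its controls on the TPM scale. On scaled counts its log2 fold change was -0.14 and the groups overlapped. dkk2 was above its control in pairs 11 and 12 and below it in pair 13, with 1.59, 1.56 and 0.14 TPM in shh eyes, against 0.84, 0.54 and 0.82 TPM in control eyes.

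**Figure D3:**
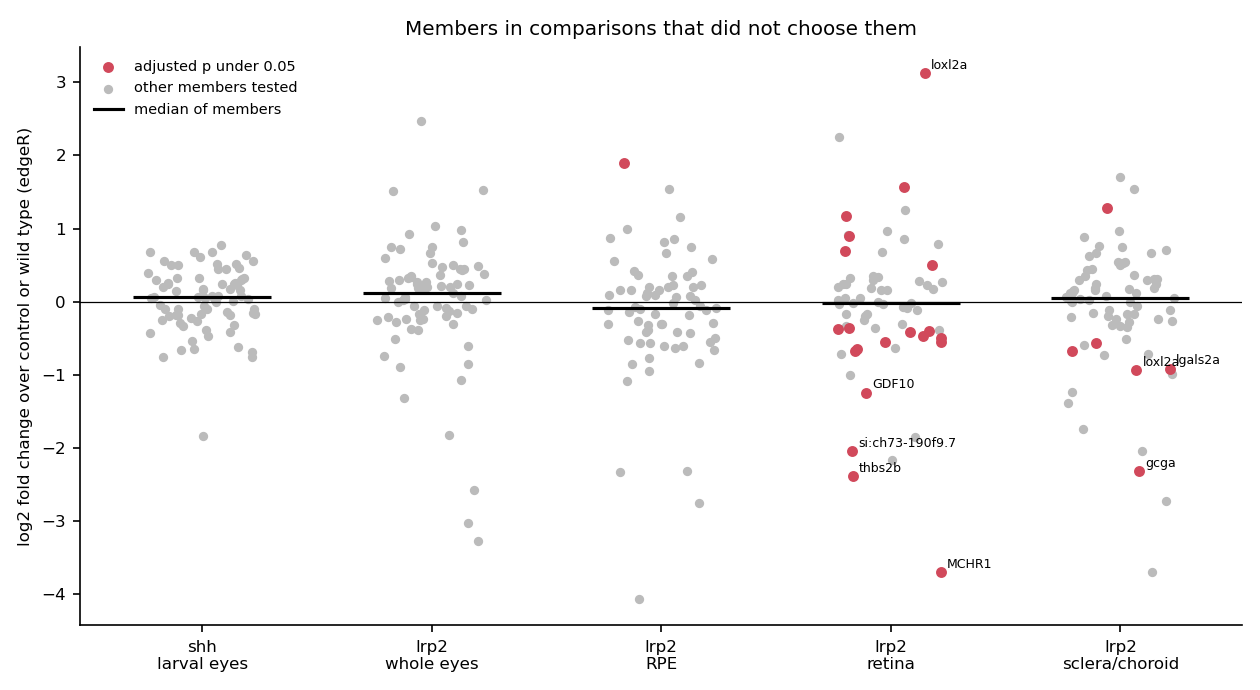
Log2 fold changes (edgeR) of the members tested in shh eyes and in 4 kinds of lrp2 mutant sample. Red points passed an adjusted p of 0.05, grey points did not, and bars mark medians, which lie between -0.09 and 0.12.

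In lrp2 mutants the members did not move together. Their median log2 fold changes were 0.12 in whole eyes, -0.09 in RPE, -0.02 in retina and 0.05 in sclera with choroid, beside medians of all genes between -0.01 and 0.03. In whole eyes, 0 of 75 members were called by edgeR in either direction, beside 0.374% of 21411 genes called higher and 0.56% called lower. An unadjusted p under 0.05 was reached by 20 of 75 members, a larger share than the 14.1% of all genes. DESeq2 called 2 members higher and 4 lower among 1012 genes called. The mutant and wild-type whole eyes were apart without overlap for 19 of 75 members on the high side. That is a larger share than the 10.0% of all genes. On the low side there were 10 members, beside 10.4% of all genes. Marker sums differed as well: the melanosome list summed to 781 to 907 TPM in mutant whole eyes and 362 to 577 TPM in wild-type whole eyes, and the RPE and visual cycle list to 1714 to 2109 TPM and 1315 to 1613 TPM. Mutant library 1 stood apart, with a skeletal muscle sum of 3538 TPM, against 1141 and 1541 TPM in the other mutant whole eyes. Without it 359 genes were called, against 200 with all libraries, and 0 members were called in both fits. The part of these markers was not tested. In RPE, 1 of 69 members was called higher, beside 0.574% of 21064 genes, and 0 lower, beside 0.798%. It has no symbol and lost its call in 5 of the 6 fits that left out 1 library. DESeq2 called 3 members higher and 7 lower in RPE among 1752 genes called. At an unadjusted p under 0.05 there were 15 members, beside 16.8% of all genes. The 1012 and 1752 genes called by DESeq2 are totals of both directions. Its member counts therefore have no share by direction beside them and are not read as a result about the members.

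Retina was the tissue with most calls when each tissue was fitted alone. In the fit of all 24 libraries, more genes were called in RPE and in sclera with choroid. Marker sums differed in retina as well. The rod list, picked after its values were seen, summed to 46882.6 to 51528.7 TPM in mutants and 52538.5 to 60172.9 TPM in wild type. Its part was not tested. Of 65 members tested there, 6 were called higher in mutants, beside 8.13% of 20065 genes, and 14 lower, beside 11.3%. The count of lower calls fell to between 3 and 10 when 1 library was left out. It was 3 without mutant library 13, and 4 without mutant library 12 or wild-type library 11. Without the lens-bearing wild-type library 12 it was 6. Calls over all genes fell as well in these fits, to between 2020 and 3477 in both directions together. With all libraries they were 1632 higher and 2277 lower. Of the 20 called members, 6 were called in all 6 such fits: MCHR1, thbs2b, loxl2a, chl1b, si:ch1073-184j22.1 and the gene without a symbol that was also called in RPE. That gene was the higher call in sclera with choroid as well.

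MCHR1 (ENSDARG00000022525), a receptor for melanin-concentrating hormone, had 0.260, 0.251 and 0.206 CPM in mutant retinas, against 2.29, 3.49 and 3.87 CPM in wild-type retinas. Every mutant library lay far below every wild-type one. Its log2 fold change was -3.70 ± 0.36 (SE, adjusted p = 0.000247, edgeR). In whole eyes its mean was 0.167 CPM in mutants and 1.02 CPM in wild type, with a log2 fold change of -2.58 ± 0.55 (SE) that was not called (edgeR adjusted p = 0.0824). In RPE it had too few counts to be tested, with means of 0.191 CPM in mutants and 1.29 CPM in wild type. In sclera with choroid it had 0, 3 and 0 counts in mutants and 10, 16 and 15 in wild type. It was not called there.

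The matrix genes loxl2a and thbs2b moved in opposite directions in the retina. loxl2a had 12.3, 5.32 and 6.95 CPM in mutant retinas, against 0.925, 1.02 and 0.841 CPM in wild-type retinas. The groups were far apart, with a log2 fold change of 3.13 ± 0.34 (SE, edgeR adjusted p = 0.000627). thbs2b had 0.823, 0.503 and 1.24 CPM in mutant retinas, against 4.58, 4.6 and 4.15 CPM in wild-type retinas, with a log2 fold change of -2.39 ± 0.31 (SE, edgeR adjusted p = 0.00105). Without wild-type library 12, which held the lens transcripts, the log2 fold changes were 3.21 for loxl2a and -2.36 for thbs2b, and both were called.

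Of the members with a role in BMP signalling, 2 were called in the mutant retina, and in different directions. SMAD7 had 88.3, 113 and 148 CPM in mutant retinas, against 53.3, 66.8 and 67.3 CPM in wild-type retinas. Its log2 fold change was 0.90 ± 0.19 (SE, edgeR adjusted p = 0.0201), and it was called in 4 of the 6 fits without 1 library. GDF10 had 2.64, 1.59 and 1.18 CPM in mutant retinas, against 5.20, 3.86 and 3.87 CPM in wild-type retinas. Its log2 fold change was -1.25 ± 0.30 (SE, edgeR adjusted p = 0.0179), called in 3 of 6 such fits. ID3, SMAD1 and BAMBI had log2 fold changes of 0.29, -0.02 and -0.03 in the retina and were not called, and msx3 and DLX3 had too few counts to be tested there.

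The remaining retinal calls had log2 fold changes between -2.04 and 1.57. CYP26A1 had 29.1, 20.7 and 19.8 CPM in mutant retinas, against 39.1, 39.7 and 32.8 CPM in wild-type retinas, a log2 fold change of -0.68. C1QTNF12 had 6.37, 6.70 and 7.11 CPM, against 9.39, 9.43 and 9.02 CPM in wild-type retinas, a log2 fold change of -0.47. chl1b, a cell adhesion gene, had 58.4, 70.4 and 59.9 CPM, against 39.4, 46.8 and 46.7 CPM in wild-type retinas, a log2 fold change of 0.51. None of these 3 genes had overlapping groups. The sulphotransferase gene CHST15, at -0.55, the myelin gene mag, at -0.55, si:dkey-246e1.3, at -0.65, and si:ch73-190f9.7, at -2.04, were also called lower, and si:ch1073-184j22.1, at 1.17, higher. Called at the edge were ppp1r9ala, with a log2 fold change of -0.37 and an edgeR adjusted p of 0.0497, VIM, with a log2 fold change of -0.37 and an edgeR adjusted p of 0.0492, and C1QTNF12. In all 6 fits without 1 library the adjusted p of each was above 0.05, and these 3 genes were picked here after their values were seen.

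The counts for the BMP lists in the mutant retina, members included, are read beside the 8.13% of all genes called higher and 11.3% called lower. Of 19 receptors and transducers tested 2 were called higher and 1 lower, and of 27 inhibitors and regulators 5 higher and 2 lower. Of 15 ligands 0 were called higher and 2 lower, the second beside GDF10 being BMP2 (ENSDARG00000041430), at -1.06. Of 30 response genes 2 were called higher and 3 lower.

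In sclera with choroid, 1 of 73 members was called higher in mutants, beside 2.81% of 21159 genes, and 5 lower, beside 3.82%. gcga, a glucagon gene, had 2.01, 1.09 and 1.69 CPM in mutants, against 6.97, 6.43 and 10.5 CPM in wild type. Its log2 fold change was -2.32 ± 0.31 (SE, edgeR adjusted p = 0.0109), and it alone of the 6 was called in all 6 fits without 1 library. Lower gcga levels were not confined to this tissue, as seen after its values were known. Whole eyes had 0, 4 and 9 counts in mutants, against 19, 50 and 59 in wild type. RPE had 9, 21 and 5 counts in mutants, against 106, 39 and 30 in wild type. Neither pair of groups overlapped, but gcga was not called in whole eyes or RPE. Retina had 2, 10 and 0 counts in mutants, against 8, 13 and 12 in wild type, too few to be tested. C1QTNF12 had 43.5, 35.0 and 39.7 CPM in mutants, against 66.8, 63.2 and 59.17 CPM in wild type, with a log2 fold change of -0.68 ± 0.11 (SE, edgeR adjusted p = 0.0193). loxl2a, at 14.5, 16.8 and 14.2 CPM in mutants, against 35.1, 28.7 and 23.4 CPM in wild type, was lower here, with a log2 fold change of -0.94 ± 0.17 (SE). The galectin gene lgals2a, at -0.92, and PREX2, at -0.57, were the other lower calls. The count of lower calls was 1 without mutant library 12, mutant library 13 or wild-type library 11, and 3 without wild-type library 12 or 13. Over all genes, the fits without 1 library called 355 to 1090, against 595 higher and 809 lower with all libraries. Marker sums differed here too. The Muller glia list, picked after its values were seen, summed to 4018 to 4760 TPM in mutants and 6211 to 7737 TPM in wild type. In wild-type retina it summed to less, 5562 to 5855 TPM, so the sum does not mark Muller glia alone. Its part was not tested.

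The change of mutant over wild type (the lrp2 effect) was tested for tissue differences, by member, in all 24 libraries of 1 month. Of 82 members tested, 3 were called for RPE minus retina, beside 1.92% of 23849 genes, and 3 for sclera with choroid minus retina, beside 2.44%. For sclera with choroid minus RPE 0 were called, beside 0.683%, while 10 had an unadjusted p under 0.05, beside 11.6% of all genes. For loxl2a the effect in RPE, 0.20, was below that in retina, 3.12, with a difference of -2.93 ± 0.50 (SE, RPE minus retina, edgeR adjusted p = 0.00415). For thbs2b the effect in RPE, 0.35, differed from that in retina, -2.40, by 2.75 ± 0.38 (SE, edgeR adjusted p = 0.000615). Both differences were called in all 18 fits without 1 library.

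**Figure D4:**
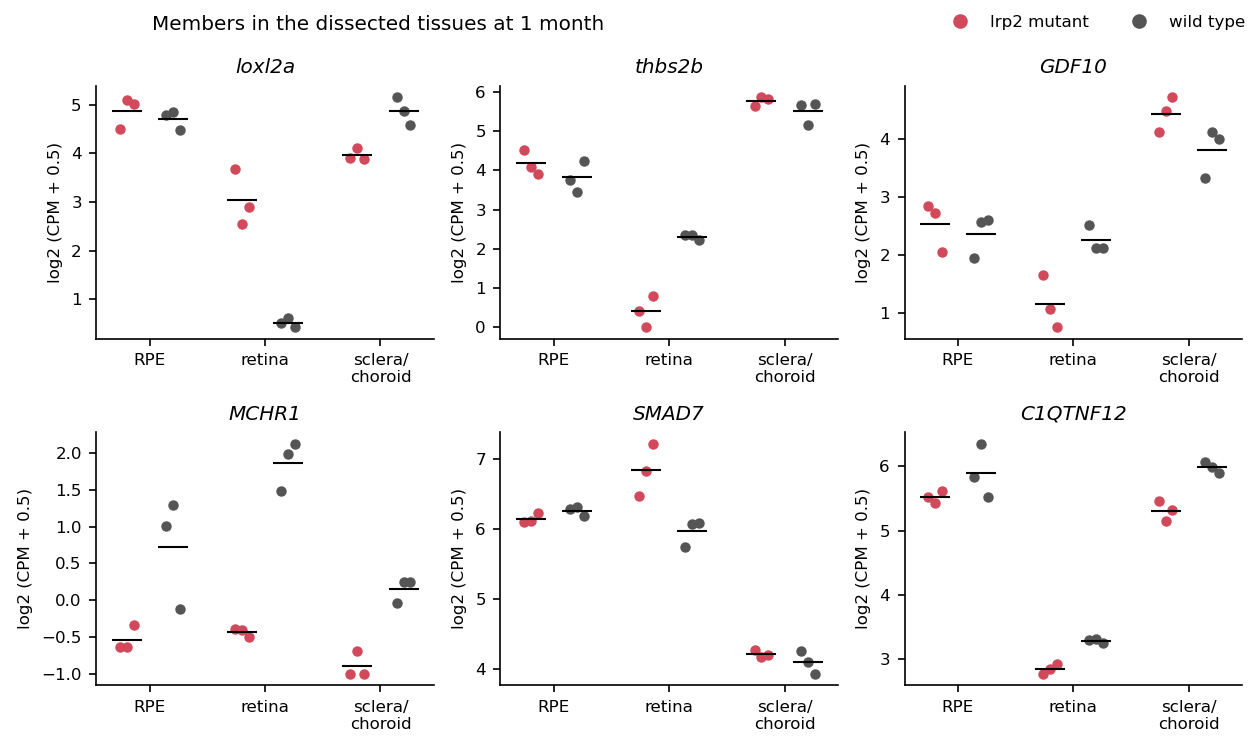
Log2 (CPM + 0.5) of 6 members in each library of RPE, retina and sclera with choroid, with lrp2 mutants left of wild type and bars at the mean of 3 libraries. In the retina loxl2a lies higher and thbs2b lower in mutants, while both lie close to wild type in RPE.

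In wild-type eyes at 1 month the members mostly had their highest levels outside the retina. Of 78 members tested, 48 were called higher in RPE than in retina, beside 35.9% of 22776 genes, and 13 lower, beside 33.2%. In sclera with choroid against retina 46 were called higher, beside 37.9%, and 17 lower, beside 35.6%. The members' median log2 differences were 1.97 for RPE and 2.12 for sclera with choroid over retina, beside medians of all genes of 0.03 and 0.02. In both tissues 41 of 78 members, or 53%, were called higher than in retina, against 30.1% of all genes, and 10 members, or 12.8%, were called lower in both, against 28.4% of all genes. Mean TPM was highest in RPE for 39 members, in sclera with choroid for 29 and in retina for 24, of 92 with at least 0.5 TPM in a tissue. Among all 17077 such genes, 23.2% were highest in RPE, 15.7% in sclera with choroid and 61.1% in retina.

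Several transcription factors were near 0 in the wild-type retina. snai1b averaged 30.3 ± 9.1 TPM in wild-type RPE and 0.14 ± 0.16 TPM in wild-type retina, a log2 fold change of 7.87 ± 0.51 (SE, edgeR adjusted p = 1.07e-06). GATA2 averaged 67.9 ± 25.7 TPM in RPE and 0.51 ± 0.28 TPM in retina, and msx3 25.3 ± 1.3 TPM and 0.20 ± 0.10 TPM (SD, n = 3). DLX3 averaged 152 ± 47 TPM in sclera with choroid, 17.1 ± 5.8 TPM in RPE and 0.26 ± 0.17 TPM in retina (SD, n = 3). No library of retina reached the lowest library of the other tissues for these 4 genes. casp6b.1, a caspase gene, pvalb4, a parvalbumin gene, and si:ch211-188p14.3 were likewise highest in sclera with choroid, where the corneal and surface epithelium list summed to 118065 to 140654 TPM, against 395 to 816 TPM in wild-type retina. pvalb4 stands on the skeletal muscle list. In wild type that list summed to 4441 to 6668 TPM in sclera with choroid and 838 to 929 TPM in retina. In RPE of wild-type fish the vascular endothelium list summed to 2736 to 4265 TPM, against 296 to 339 TPM in retina, the fibroblast and scleral matrix list to 6116 to 9643 TPM, against 1240 to 1634 TPM, and the red blood cell list to 16500 to 20474 TPM, against 882 to 948 TPM. The part of these markers in the members' levels was not tested.

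A smaller group belonged to the retina. GPR37L1 (ENSDARG00000056774), an orphan receptor gene, averaged 0.71 ± 0.58 TPM in RPE and 91.3 ± 2.7 TPM in retina (SD, n = 3), a log2 fold change of -6.75 ± 0.57 (SE, edgeR adjusted p = 5.74e-06). NPAS4 averaged 0.05 ± 0.06 TPM in RPE and 6.54 ± 4.77 TPM in retina, with log2 fold changes of -6.61 in RPE and -6.01 in sclera with choroid over retina. The clone-named si:ch211-203k16.3, si:ch211-163l21.11 and si:dkey-246e1.3 were also called lower in sclera with choroid than in retina. Between the outer tissues, 20 members were called higher in sclera with choroid than in RPE, beside 24.3% of genes, and 26 lower, beside 22.0%. VIM averaged 2.39 ± 0.55 TPM in sclera with choroid and 52.2 ± 3.0 TPM in RPE, and BAMBI 16.1 ± 5.8 TPM and 128 ± 13 TPM (SD, n = 3). CHST15 and FZD5 were also lower in sclera with choroid, and EGR3 and DLX3 higher.

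**Figure D5:**
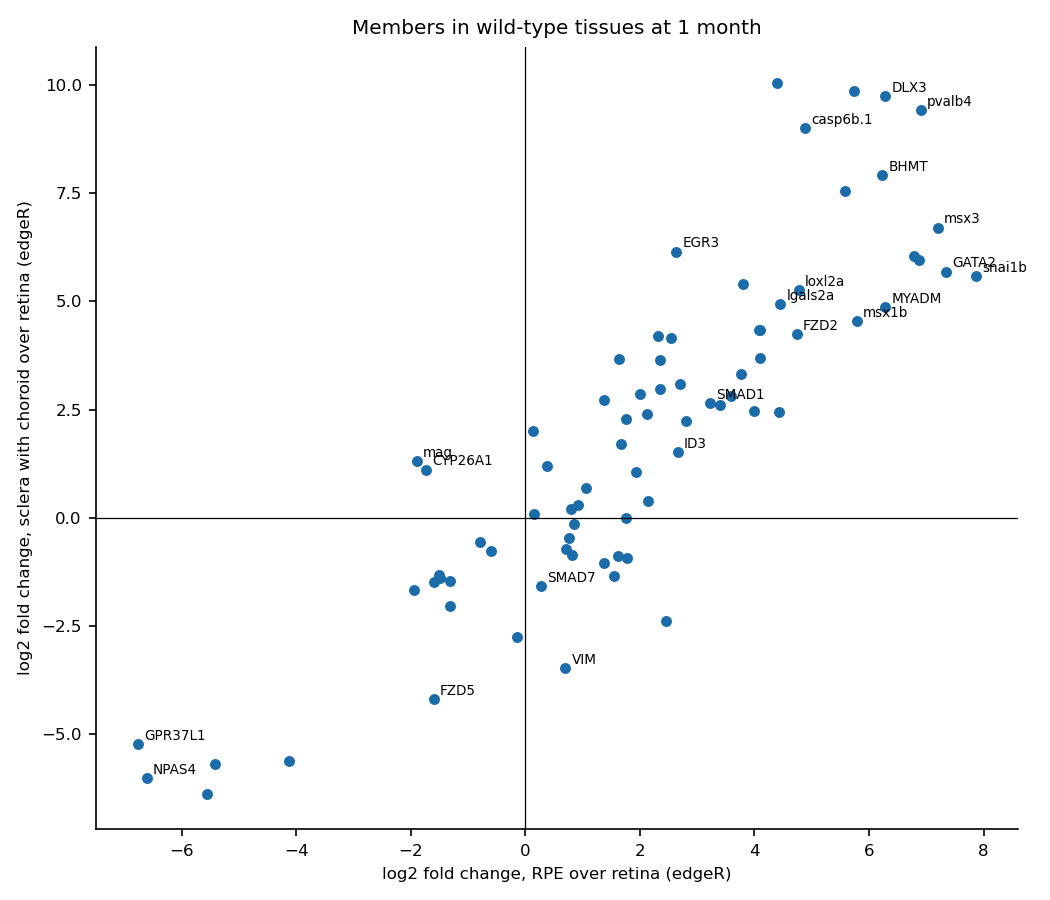
Log2 fold change (edgeR) of RPE over retina (horizontal) and of sclera with choroid over retina (vertical) for the 78 members tested in wild-type tissues. Most points lie at the upper right, with higher levels in both outer tissues, and GPR37L1 and NPAS4 lie at the lower left.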

How the data were processed

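Whole-transcriptome RNA of zebrafish eyes was read in 36 libraries in 12 groups of 3. HISAT, Bowtie2 and the build GRCz10 are named in the submitters' processing notes, with no version or role. The authors deposited estimated counts and TPM per gene. Total counts per library were 17543343 to 26708466, and 24143 to 25525 genes had a count, which limits the precision for low genes. Replicates differed beyond counting noise, with a chi-square per degree of freedom of 11.2 to 258.

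The members were taken from the TPM values, and the members and gene lists were chosen with earlier results of these data known. The expected counts, rounded to integers, entered the quasi-likelihood test of edgeR 4.0.16 (TMM scaling, low-count filter, R 4.3.3) over all genes, with Benjamini-Hochberg adjustment and a threshold of 0.05. Each lrp2 comparison used its own 6 libraries. Wild-type tissues were fitted over 9 libraries and differences of lrp2 effects over 24. CPM were computed from the counts on scaled library sizes. List genes were matched by symbol, and capital symbols also without a final a or b, a rule added later. The code was tested on simulated data.

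Same-numbered libraries deviated together in the bmp4 set (r = 0.47, 0.49 and 0.60) and the shh set (r = 0.28, 0.38 and 0.24), so these numbers pair the libraries there. This rests on the data, not on the labels. The genes named are the 25 members with the highest smallest-pair ratio, in each followed comparison up to 8 called members per direction by fold change without overlap, up to 4 per direction in wild-type tissues, up to 4 for each tissue difference, members on the gene lists, and 3 genes on each side of the limit; exceptions are marked. Genes without symbols are counted. Alternatives were DESeq2 1.42.0, limma 3.58.1 on log2(TPM + 0.5) and log2(TPM + 0.1), other size factors, no filter, a replicate block, a fit of all 24 libraries and leaving out each library. One member is not reported here.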

Additional observations from a re-analysis of the deposited data

Results flagged for a closer look

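For 4 members the change of mutant over wild type, called the effect here, differed between tissues. Each was found by a test of the difference itself (edgeR, 24 libraries). Genotype and family cannot be told apart in this effect. For thbs2b the RPE effect minus the retina effect was 2.75 ± 0.38 (SE), and the sclera with choroid effect minus the retina effect was 2.63 ± 0.37, from effects of 0.35 in RPE, 0.23 in sclera with choroid and -2.40 in retina. For loxl2a these differences were -2.93 ± 0.50 and -4.08 ± 0.51, from effects of 0.20, -0.95 and 3.12. GDF10 differed by 1.86 ± 0.43 between sclera with choroid and retina, with an adjusted p of 0.0271, and stayed called in 14 of 18 fits without 1 library. si:ch1073-303k11.2 differed by -0.76 ± 0.18 between RPE and retina, with an adjusted p of 0.0364, and stayed called in 9 of 18.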

How the results depend on the processing

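No call of a member changed direction under any setting tried other than that of ppp1r9ala, lrp2 retina, at 0.0707 with limma on log2(TPM + 0.5) and 0.0741 on log2(TPM + 0.1). Of 771 single-gene values tried, 615 kept their side of the threshold, 154 lost their call and 2 reversed. The counts moved more. With DESeq2, 100 genes were called in bmp4 eyes, 2 in shh eyes, 1012 in whole eyes, 1752 in RPE and 2917 in sclera with choroid, against 22, 0, 200, 289 and 1404 with edgeR. Members called higher and lower with DESeq2 were 2 and 4 in whole eyes, 3 and 7 in RPE, and 3 and 9 in sclera with choroid. With limma on log2(TPM + 0.5), 12 genes were called in bmp4 eyes, 1 member was higher in whole eyes, 7 lower in retina, and 3 higher and 3 lower in sclera with choroid. With limma on log2(TPM + 0.1) these were 12 genes in bmp4 eyes, 7 members lower in retina, and 3 higher and 2 lower in sclera with choroid, with 2565 genes called in retina. With the replicate block, 609 genes were called in bmp4 eyes, 409 in whole eyes, 368 in sclera with choroid and 0 in RPE; members were 1 lower in whole eyes, 0 higher in RPE, and 0 higher and 1 lower in sclera with choroid. The lrp2 numbers do not pair the libraries (same-number r of 0.22, 0.15 and 0.01 in whole eyes, 0.01, -0.05 and 0.01 in retina). In the fit of all 24 libraries, 461 genes were called in whole eyes, 1994 in RPE, 1745 in retina and 2250 in sclera with choroid; members were 1 higher and 1 lower in whole eyes, 2 higher and 7 lower in RPE, and 4 lower in retina. Leaving out 1 library gave 6 to 12 genes in bmp4 eyes, 1 to 359 in whole eyes, 4 to 549 in RPE, 2020 to 3477 in retina and 355 to 1090 in sclera with choroid. Members were then 0 to 1 higher in RPE, 4 to 7 higher and 3 to 10 lower in retina, and 0 to 2 higher and 1 to 4 lower in sclera with choroid. Members called for the tissue differences were 2 to 5 for RPE minus retina, 2 to 4 for sclera with choroid minus retina and 0 to 1 for sclera with choroid minus RPE. On the log2(TPM + 0.5) scale the median of all genes shifted to -0.32 in shh eyes, 0.16 in sclera with choroid and 0.16 in RPE of lrp2 mutants, and, in wild type, to -0.49 for sclera with choroid over retina, -0.25 for sclera with choroid over RPE and -0.22 for RPE over retina. The cause of these moves was not tested. Gene counts in this paragraph are totals of both directions. The member counts therefore have no matching share of all genes beside them. Members under a few counts are limited by depth.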
